A study of Trichoderma harzianum with 18 samples.

Results

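The 10 *Trichoderma harzianum* genes described here had lower group medians of transcript level on D-fructose than on cellulose and without a carbon source. This held both in the wild type and in a strain without the transcription factor gene *xyr1*. The genes are 10 of the 14290 annotated genes of the expression tables. A gene was taken when the median FPKM of its 3 replicate libraries plus 0.5 was at least 10 in the wild type on cellulose and without a carbon source, at least 3 times that of the wild type on D-fructose in both, and within 3-fold between the 2 conditions. In the mutant, the same value on cellulose and without a carbon source had to be at least 3 times that of the mutant on D-fructose. FPKM are mapped fragments scaled by gene length and library size, so levels are comparable between genes per unit of length. The rule leaves out 3 genes by name, of which only the glycoside hydrolase family 3 β-glucosidase gene Triha1_96503 met the thresholds, with a smallest ratio to D-fructose of 3.13. Because the 10 genes were selected on these measured medians, every contrast with D-fructose and the contrast of cellulose with no carbon in the wild type are given below as descriptions without a test.

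D-fructose is a readily used sugar, and in filamentous fungi such sugars keep many genes for the use of other carbon sources down, a control known as carbon catabolite repression, in which the repressor CRE1 takes part in *Trichoderma*. When the sugar is gone, repression is lifted and starvation responses begin. Cellulose is a polymer that the fungus must first cut into sugars outside the cell. XYR1 is the activator of cellulase and xylanase genes in *Trichoderma reesei*. Sugar transporters of the plasma membrane, a large family in these fungi, are among the genes known to respond to the sugar supply.

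The libraries were made from mycelia of shake-flask cultures in minimal medium, 3 for each strain and condition, 18 libraries in 6 groups. The strains were the wild type (CBS 226.95) and the Δ*xyr1-2* mutant, and the conditions were cellulose at 1% (w/v), D-fructose at 25 mM and no carbon source (no carbon). All were collected 18 h after transfer of mycelium from pre-cultures of 36 h on D-fructose, so every culture had D-fructose before. The mutant carries a hygromycin resistance cassette in place of *xyr1* and is 1 of 2 deletion transformants, that is 1 clone, purified from single spores. The 3 sets of replicate pre-cultures came from separate spore plates.

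Libraries held from 16208381 to 21263103 reads on genes. The *xyr1* gene (Triha1_1126) was between 25.7 and 273 FPKM in the 9 wild-type libraries and between 0 and 0.196 FPKM in the 9 mutant libraries, which fits the strain labels. The composition of the libraries differed between groups, with normalization factors by the trimmed mean of M-values (TMM) of 0.620 to 0.973 on D-fructose and in the wild type on cellulose, and of 1.17 to 1.28 in the other 3 groups. Wild-type cellulose replicate 3 and mutant D-fructose replicate 1 stood apart in the genes described here, and values without them are given where they change a result. The cultures are bulk mycelium, in which fewer hyphae of a kind and less RNA per cell cannot be told apart.

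Relative to D-fructose, median levels were 3.33 to 11.6 times as high in the wild type on cellulose and 4.06 to 18.0 times as high in the wild type without carbon, as ratios of medians plus 0.5. In the mutant the range over the 10 genes was 4.03 to 28.7 times on cellulose and 3.95 to 20.9 times without carbon. By single libraries, all 3 wild-type cellulose libraries were above all 3 wild-type D-fructose libraries in 9 of the 10 genes, against 8.28% of all genes with a value. The exception was Triha1_477752, and without wild-type cellulose replicate 3 all 10 genes were separated, against 20% of all genes. For the wild type without carbon, the mutant on cellulose and the mutant without carbon, 10 of 10 genes were separated from D-fructose by FPKM, against 42.2%, 50.1% and 49.1% of all genes. After division by the TMM factors, Triha1_489804 was not separated in the mutant. Since the rule selected for these differences, nothing is read from the counts.

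**Figure D1:**
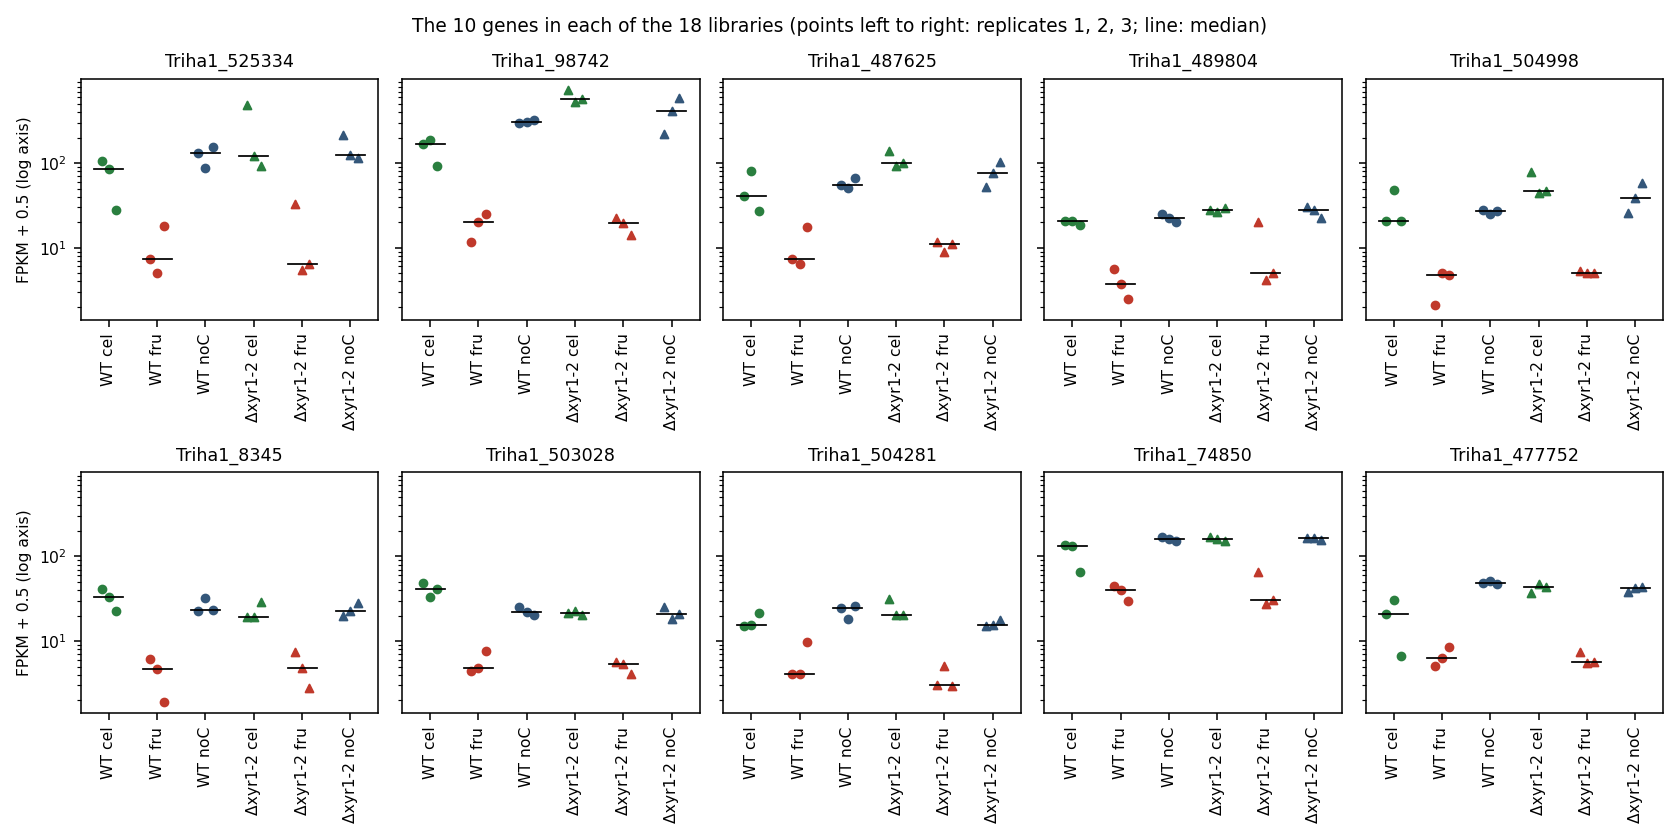
FPKM plus 0.5 of each of the 10 genes (log axis) in the 18 libraries, by strain (circles, wild type; triangles, Δ*xyr1-2*) and condition (cel, cellulose; fru, D-fructose; noC, no carbon source), with the 3 replicates as points from left to right and the median as a line. In 6 panels every D-fructose point lies below every other point, and in Triha1_525334, Triha1_489804, Triha1_74850 and Triha1_477752 single replicates overlap.

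Only 1 of the 10 genes has an annotation in the sources used here. Triha1_487625 (1836 bp, bases 28393 to 30228 of its scaffold in assembly Triha v1.0) encodes a protein of the sugar transporter family PF00083, membrane proteins of the major facilitator superfamily that carry sugars into or out of the cell, and its reciprocal best hit in *T. reesei* is Trire2_62380. In the wild type it had 40.8, 80.8 and 26.4 FPKM on cellulose, 6.75, 5.91 and 17.1 on D-fructose and 53.9, 50.6 and 65.5 without carbon in replicates 1, 2 and 3. In the mutant it had 137, 92.3 and 100.2 FPKM on cellulose, 11.2, 8.45 and 10.5 on D-fructose and 51.5, 76.2 and 103 without carbon. By FPKM the mutant cellulose libraries were thus the highest as a group, all above the 3 wild-type cellulose libraries. After division by the TMM factors the strains overlapped on cellulose, at 50.6, 102 and 32.2 in the wild type and 116, 72.2 and 81.1 in the mutant. D-fructose and the other conditions did not overlap by FPKM in either strain. The lowest library off D-fructose, wild-type cellulose replicate 3 at 26.4 FPKM, was still above the highest on it, wild-type replicate 3 at 17.1 FPKM.

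The other 9 genes are given by identifier, since no function is stated for them in the sources used here. Among them Triha1_98742 (992 bp, bases 312446 to 313437 of its scaffold) reached the highest level. In the wild type it had 166, 188 and 91.4 FPKM on cellulose, 11.1, 19.8 and 24.7 on D-fructose and 295, 302 and 321 without carbon. The mutant cultures had 732, 522 and 567 FPKM on cellulose, 21.8, 19.3 and 13.4 on D-fructose and 221, 413 and 580.4 without carbon. The wild type without carbon was the tightest group of this gene, at 306 ± 13.5 FPKM (SD, n = 3), and lay wholly above the wild type on cellulose. The mutant on cellulose lay wholly above both. The ratio of the highest to the lowest of the 4 group medians off D-fructose was 3.41, the widest of the 10 genes.

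Triha1_525334 (2512 bp, bases 243138 to 245649 of its scaffold) had the highest smallest ratio to D-fructose, 11.6. In the wild type it had 106, 84.5 and 27.2 FPKM on cellulose, 6.84, 4.53 and 17.7 on D-fructose and 131, 87.4 and 156 without carbon. In the mutant it had 478, 122 and 92.8 FPKM on cellulose, 32.3, 4.90 and 5.88 on D-fructose and 215, 125 and 113 without carbon. Single libraries set much of its spread, with a coefficient of variation of 93.0% in the mutant on cellulose and 108% in the mutant on D-fructose. Mutant D-fructose replicate 1, at 32.3 FPKM, was above wild-type cellulose replicate 3, at 27.2 FPKM, so across the strains the conditions overlapped.

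Triha1_74850 (1680 bp, bases 3738635 to 3740314 of its scaffold) had the highest level on D-fructose of the 10 genes. In the wild type it had 138, 132 and 65.1 FPKM on cellulose, 44.0, 39.1 and 29.0 on D-fructose and 169, 160.1 and 152 without carbon. The mutant cultures had 168, 160.1 and 152 FPKM on cellulose, 65.5, 27.0 and 30.2 on D-fructose and 164, 163 and 156 without carbon. Off D-fructose, its level was nearly the same in the wild type without carbon and in both mutant groups, at 160.2 ± 8.58, 160.2 ± 8.0 and 161 ± 4.50 FPKM (SD, n = 3 each). Wild-type cellulose replicate 3 was the library off D-fructose nearest to D-fructose, just under mutant D-fructose replicate 1.

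The next genes by level were Triha1_477752 and Triha1_504998. Triha1_477752 (2775 bp, bases 240477 to 243251 of its scaffold) had 20.7, 30.1 and 6.18 FPKM on cellulose in the wild type, 4.55, 5.84 and 7.91 on D-fructose and 48.5, 51.0 and 46.4 without carbon. In the mutant it had 36.9, 47.1 and 42.6 FPKM on cellulose, 6.87, 5.06 and 5.14 on D-fructose and 37.5, 41.4 and 42.9 without carbon. By FPKM not divided by the TMM factors, all 3 wild-type cellulose libraries of this gene lay below all the other libraries off D-fructose, and replicate 3 lay among the D-fructose libraries. Its ratio of cellulose to no carbon in the wild type, 0.43, was the lowest of the 10 genes.

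Triha1_504998 (1233 bp, bases 534369 to 535601 of its scaffold) had 20.1, 47.3 and 20.2 FPKM on cellulose in the wild type, 1.61, 4.50 and 4.24 on D-fructose and 27.5, 24.6 and 26.7 without carbon. The mutant cultures had 76.9, 43.7 and 45.9 FPKM on cellulose, 4.75, 4.48 and 4.53 on D-fructose and 25.0, 37.8 and 58.0 without carbon. The 6 D-fructose libraries did not overlap with the other 12. On cellulose the strains overlapped, because wild-type replicate 2 was above 2 of the 3 mutant libraries.

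The remaining 4 genes had medians off D-fructose between 14.9 and 40.4 FPKM. Triha1_503028 (1761 bp, bases 2780455 to 2782215 of its scaffold) had 48.1, 33.1 and 40.4 FPKM on cellulose in the wild type, 3.89, 4.36 and 7.04 on D-fructose and 24.7, 21.4 and 20.0 without carbon. The mutant had 20.9, 22.3 and 19.6 FPKM on cellulose, 5.22, 4.79 and 3.55 on D-fructose and 25.1, 17.6 and 20.4 without carbon. The wild type on cellulose was the highest group of this gene, above all 15 other libraries, while the mutant on cellulose was at the level of both cultures without carbon.

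In Triha1_8345 (618 bp, the shortest, bases 168295 to 168912 of its scaffold) the wild type had 40.8, 33.0 and 22.4 FPKM on cellulose, 5.61, 4.22 and 1.40 on D-fructose and 22.2, 31.7 and 22.9 without carbon. The mutant had 18.9, 19.0 and 28.6 FPKM on cellulose, 6.93, 4.34 and 2.33 on D-fructose and 19.1, 22.0 and 27.4 without carbon. The wild type on cellulose again had the highest median, but its replicate 3 was below mutant cellulose replicate 3. This gene also had the fewest reads in a library, 15, in wild-type D-fructose replicate 3.

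For Triha1_489804 (940 bp, bases 3270064 to 3271003 of its scaffold) the wild-type values were 20.0, 20.1 and 18.1 FPKM on cellulose, 5.17, 3.27 and 1.99 on D-fructose and 24.5, 21.7 and 19.6 without carbon. In the mutant they were 27.2, 25.7 and 29.2 FPKM on cellulose, 19.6, 3.64 and 4.47 on D-fructose and 29.4, 27.1 and 22.1 without carbon. Mutant D-fructose replicate 1 was at the level of the wild type off D-fructose, far above the other 2 libraries of its group. All other D-fructose libraries were at most 5.17 FPKM. After division by the TMM factors, mutant D-fructose replicate 1 was at 31.6. It was then above the mutant on cellulose (20.1 to 23.7) and without carbon (18.3 to 24.6).

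Triha1_504281 (1020 bp, bases 2482120 to 2483139 of its scaffold) had 14.5, 15.1 and 21 FPKM on cellulose in the wild type, 3.57, 3.59 and 9.30 on D-fructose and 24.1, 17.6 and 25.3 without carbon. In the mutant it had 31.2, 19.9 and 19.7 FPKM on cellulose, 2.54, 4.52 and 2.44 on D-fructose and 14.5, 14.9 and 17.1 without carbon. D-fructose and the other conditions did not overlap, and alone among the 10 genes mutant D-fructose replicate 1 was not the highest of its group.

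Across the whole set, by FPKM not divided by the TMM factors, all 12 libraries off D-fructose were above all 6 on D-fructose in 6 of the 10 genes, against 2.36% of all genes. The 4 others were Triha1_525334, Triha1_489804, Triha1_74850 and Triha1_477752. Without wild-type cellulose replicate 3, 10 of 10 were separated, against 5.45% of all genes, and without mutant D-fructose replicate 1 it was 9 of 10, against 2.78%. The first of these libraries was the lowest of its group in 7 of the 10 genes, and the second was the highest of its group in 9 of 10 and had the lowest TMM factor of all libraries, 0.620. How often this was so over all genes was not counted. The part of these features in the overlaps was not tested, and nothing is read from the counts, because the rule selected for the separation.

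The order of the 4 groups off D-fructose, by FPKM not divided by the TMM factors, was not shared. By median, the wild type on cellulose was highest in Triha1_8345 and Triha1_503028, and the wild type without carbon in Triha1_525334, Triha1_504281 and Triha1_477752. The mutant on cellulose was highest in Triha1_98742, Triha1_487625, Triha1_489804 and Triha1_504998, and the mutant without carbon in Triha1_74850. The ratio of the highest to the lowest of these 4 medians was 1.24 to 3.41 over the genes. Groups next to each other in this order had overlapping libraries, with 4 exceptions, all of them the wild type on cellulose. It lay wholly above the next group in Triha1_503028, and wholly below it in Triha1_98742, Triha1_74850 and Triha1_477752. After division by the TMM factors the last 2 overlapped. Triha1_74850 was then at 171, 166 and 79.4 in the wild type on cellulose, and at 143, 125 and 123 in the mutant on cellulose. Triha1_477752 was at 25.6, 37.9 and 7.54 in the wild type on cellulose, and at 31.3, 33.8 and 35.4 in the mutant without carbon. The median coefficient of variation over the genes was 11.0% in the wild type without carbon, 35.2% on cellulose and 46.2% on D-fructose. In the mutant it was 18.3% without carbon, 19.9% on cellulose and 30.2% on D-fructose. Triha1_98742, Triha1_487625 and Triha1_504998 also had the same extreme libraries in 3 groups. In each of them wild-type cellulose replicate 2 and mutant cellulose replicate 1 were the highest of their groups, and mutant no-carbon replicate 1 was the lowest and replicate 3 the highest.

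How far the wild type on cellulose had moved from the D-fructose level to the no-carbon level was measured for each gene and library on the log2 scale, with 0 at the median of the wild type on D-fructose and 1 at that of the wild type without carbon. Over the 10 genes the median position was 0.877 in replicate 1 (range 0.589 to 1.53), 0.910 in replicate 2 (0.745 to 1.32) and 0.747 in replicate 3 (0.0254 to 1.42). In replicate 3 the genes Triha1_525334, Triha1_74850 and Triha1_477752 were nearer to the D-fructose level, whereas no gene was in the other 2 replicates. After FPKM were divided by the TMM factors the medians were 1.07, 1.21 and 0.935, and in replicate 3 only Triha1_477752 was nearer to D-fructose. The position is set in part by the rule, which kept the wild type on cellulose within 3-fold of no carbon.

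The 10 genes together held a small share of each library, smallest on D-fructose in both strains. The share of summed FPKM was 0.0555 ± 0.0168% (SD, n = 3) on cellulose in the wild type, 0.00958 ± 0.00121% on D-fructose and 0.0851 ± 0.00441% without carbon. In the mutant it was 0.135 ± 0.0392% on cellulose, 0.0108 ± 0.00513% on D-fructose and 0.100 ± 0.0169% without carbon. On cellulose the libraries of the strains did not overlap, with 0.0362 to 0.0671% in the wild type and 0.111 to 0.181% in the mutant. These shares are not scaled for library composition, and the TMM factors were 0.80 to 0.82 in the wild type on cellulose and 1.17 to 1.28 in the mutant. In the fits with TMM given below, 5 of the 10 genes were above 0 between the strains on cellulose. Their median log2 fold change was 0.04, so the share is not read as a difference of the set between the strains. Triha1_98742, Triha1_525334 and Triha1_74850 had the highest group medians off D-fructose and so weigh most in the share.

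**Figure D2:**
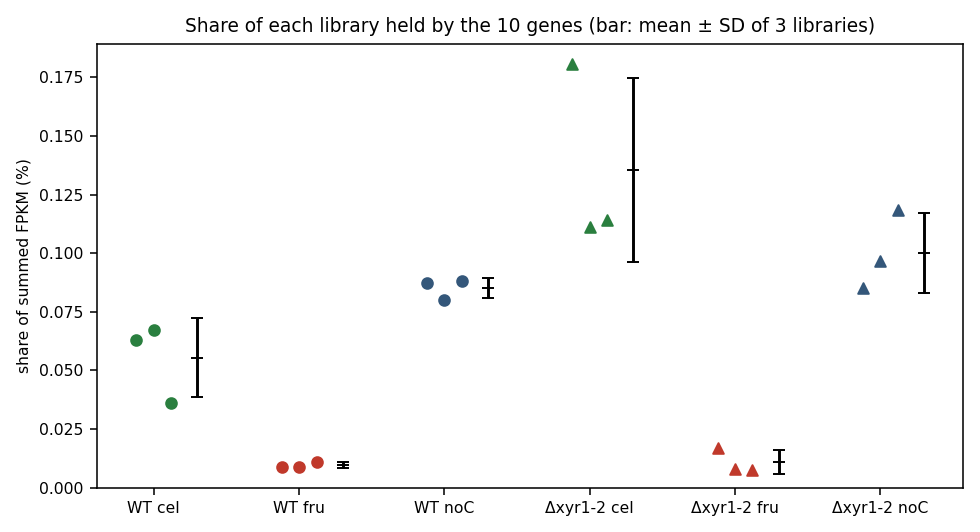
Share of summed FPKM held by the 10 genes together, in percent, in each of the 18 libraries (points left to right, replicates 1 to 3), with the mean ± SD of the 3 replicates of each group beside them. The 6 D-fructose libraries lie between 0.00762 and 0.0167%, the other 12 between 0.0362 and 0.181%.

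The comparisons of the strains within a condition, and of cellulose with no carbon in the mutant, were not set by the rule and were tested on the deposited counts with edgeR's quasi-likelihood test over all genes. A gene was called at a Benjamini-Hochberg adjusted p under 0.05, a change over 2-fold and, in either group, a mean FPKM over 1. Numbers of genes at an unadjusted p under 0.05 are given below without an all-gene share, so nothing is read from them. On cellulose, 1 of the 10 genes was higher in the mutant and 2 were lower, against 21.5% of all genes tested called higher and 20.7% lower. In either direction it was 3 of 10, against 42.2% of all genes, so the count says nothing particular about these genes. The log2 fold changes below were fitted to counts scaled by TMM, so they differ from the ratios of the FPKM beside them, which are not. Triha1_98742 rose in the mutant from 149 ± 50.8 to 607 ± 111 FPKM (SD, n = 3), and every mutant library was above every wild-type library. Its fitted log2 fold change was 1.35 (SE 0.34, edgeR adjusted p 0.0153). Triha1_503028 fell from 40.5 ± 7.51 to 20.9 ± 1.37 FPKM, also without overlap, with a fitted log2 fold change of -1.63 (SE 0.18, edgeR adjusted p 0.000835). Triha1_8345 fell from 32.1 ± 9.22 to 22.2 ± 5.54 FPKM with overlapping libraries, and its fitted log2 fold change was -1.22 (SE 0.30, edgeR adjusted p 0.0142). That call was lost without mutant cellulose replicate 1 or replicate 2, at log2 fold changes of -1.07 and -1.03 and edgeR adjusted p of 0.0749 and 0.0793.

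The other 7 genes were not called on cellulose, with log2 fold changes between -0.19 and 1.01. The sugar transporter gene Triha1_487625 was at 0.47 (SE 0.44, edgeR adjusted p 0.394) although its FPKM did not overlap between the strains, and without wild-type cellulose replicate 2 it was called at 1.05 (edgeR adjusted p 0.0460). Triha1_525334, with the largest fitted change of these, was at 1.01 (SE 0.78, edgeR adjusted p 0.304), but at -0.10 without mutant cellulose replicate 1 and at 0.61 without wild-type cellulose replicate 3. Which zero is used matters here, because scaling by library size alone adds 0.68 to the median over all genes. In Triha1_489804 and Triha1_74850 the FPKM of every mutant library was above that of every wild-type library, while the log2 fold changes after TMM were -0.19 (SE 0.17) and -0.17 (SE 0.31). With library size alone, 2 of the 10 genes were called higher (Triha1_98742 and Triha1_487625) and 0 lower, and 8 rather than 5 of 10 were above 0. Triha1_503028 was then at a log2 fold change of -0.95 (edgeR adjusted p 0.0050) and missed only the 2-fold criterion. Triha1_8345 was at -0.53 (edgeR adjusted p 0.157). Over all genes the split was then 4208 higher and 1270 lower, in place of 2470 and 2379.

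On D-fructose none of the 10 genes was called between the strains by edgeR, with 0 at an unadjusted p under 0.05, against 0.00917% of all genes called. DESeq2 also called 0. The log2 fold changes of the mutant over the wild type ran from -0.56 to 1.80 with a median of 0.39, beside a median of -0.03 for all genes, and 9 of 10 were above 0. With library size alone the median was 0.07, 6 of 10 were above 0 and the median of all genes was -0.29. The largest value, 1.80 (SE 0.78, edgeR adjusted p 0.619), was that of Triha1_489804, in which mutant replicate 1 was far above the other libraries. These values rest on that library. Without mutant D-fructose replicate 1, only 3 of 10 genes were above 0, the median was -0.07, the range was -0.71 to 0.55 and Triha1_489804 was at 0.37.

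Without a carbon source 0 of 10 genes were called between the strains, against 0.132% of all genes, and 0 by DESeq2. At an unadjusted p under 0.05 there were 3 genes, each with an edgeR adjusted p of 0.753. They were Triha1_504998 at a log2 fold change of 0.62 (SE 0.25), Triha1_504281 at -0.52 (SE 0.15) and Triha1_477752 at -0.25 (SE 0.07), of which the last 2 had all mutant libraries below all wild-type libraries. The value nearest to 0 was that of Triha1_74850, 0.02 (SE 0.08).

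In the mutant, cellulose against no carbon gave 0 of 10 genes called, against 0.0782% of all genes, 0 by DESeq2 and 0 with the replicate pairs as a block. The log2 fold changes ran from -0.06 to 0.63, with a median of 0.26 beside 0.01 for all genes. At an unadjusted p under 0.05 there was only Triha1_504281, at 0.60 (SE 0.22, edgeR adjusted p 0.887). The 5 highest values, of Triha1_525334, Triha1_98742, Triha1_487625, Triha1_504998 and Triha1_504281, rest in part on mutant cellulose replicate 1. Without it these genes were at -0.56, 0.38, 0.27, 0.10 and 0.30, in place of 0.63, 0.58, 0.51, 0.47 and 0.60, and the median over the 10 genes was 0.05. With the block Triha1_525334 was at 0.26. The strain comparison on cellulose and this comparison share the mutant cellulose libraries.

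**Figure D3:**
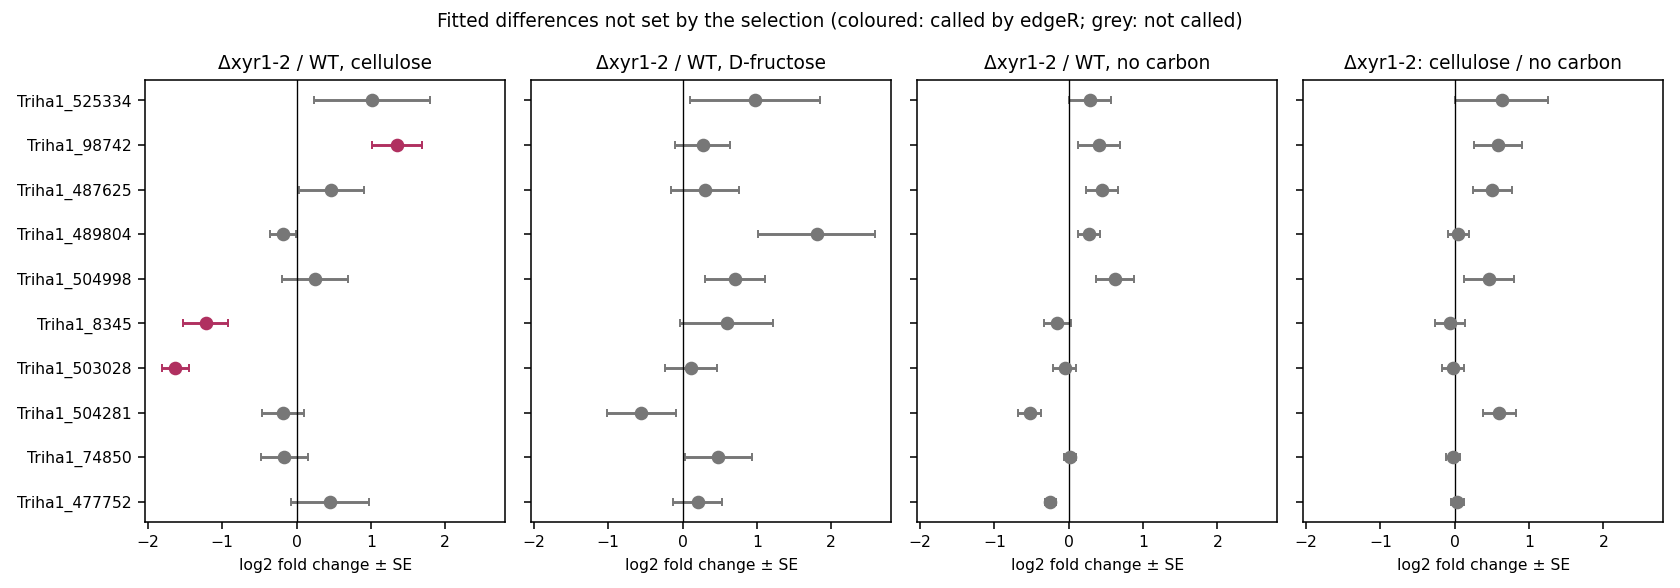
Fitted log2 fold change ± SE of the 10 genes in the 4 comparisons that the selection did not use (edgeR, 6 libraries each), coloured where called and grey where not. Called genes appear only for the strains on cellulose, with Triha1_98742 above 0 and Triha1_8345 and Triha1_503028 below it.

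Because the annotated gene is a sugar transporter, the 90 genes of family PF00083 in the part of the study's annotation table used here were followed as a group. At least 3 times the D-fructose level was reached by 9 of them in the wild type on cellulose and 19 without carbon. Over the 14290 annotated genes it was 342 and 1191. Of the family, 32 reached it in the mutant on cellulose and 27 without carbon, for which no all-gene number is given. In the 3 groups other than the wild type on cellulose it was reached together by 18 genes, against 1053 annotated genes. With FPKM divided by the TMM factors, the 1053 became 674. In all 4 groups it was reached by 90 annotated genes, 2 of them in the family, Triha1_487625 and Triha1_493995. In the latter the wild type had 4.65 times the no-carbon level on cellulose, so it fell outside the rule. Between the strains on cellulose, 28 of 79 transporter genes tested were higher in the mutant and 13 lower, against 21.5% and 20.7% of all genes, with a median log2 fold change of 0.93 beside 0.00 for all genes. With library size alone it was 41 higher and 11 lower, where the calls over all genes were 4208 and 1270 and the medians 1.61 and, for all genes, 0.68. On D-fructose 0 of 71 were called and 7 were at an unadjusted p under 0.05, while DESeq2 called 1 lower, against 20 lower over all genes. Without carbon 1 of 75 was lower, against 0.132% of all genes. In the mutant 2 of 78 were higher on cellulose than without carbon, against 0.0782% of all genes.

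The 93 genes of carbon catabolism in the same table, enzymes of the pathways that break down sugars inside the cell, were counted in the same way. None of them reached 3 times the D-fructose level in all 4 groups, and 3 did in the 3 groups other than the wild type on cellulose. Over the 14290 annotated genes it was 90 and 1053, so the absence from all 4 groups is not read as a trait of this list. Between the strains on cellulose, 7 of 90 were higher and 45 lower in the mutant, against the same 21.5% and 20.7% of all genes, with a median log2 fold change of -1.07 beside 0.00. With library size alone it was 13 higher and 25 lower, with a median of -0.38 beside 0.68 for all genes. On D-fructose 0 of 90 were called and 15 were at an unadjusted p under 0.05, while DESeq2 called 2 higher, against 88 higher over all genes. Without carbon, and between cellulose and no carbon in the mutant, 0 of 91 were called by edgeR and by DESeq2, with 5 and 4 at an unadjusted p under 0.05.

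The steps of the selection are given here in 1 of several possible orders. A level at least 3 times that on D-fructose was reached by 1191 annotated genes in the wild type without carbon, by 1079 of these also in the mutant without carbon and by 1053 also in the mutant on cellulose. Of the 1053 only 90 reached it in the wild type on cellulose as well. Requiring levels of at least 10 in the wild type left 56 genes, requiring cellulose within 3-fold of no carbon left 11, and 10 remained after Triha1_96503 was left out. Scaling bears on the larger of these numbers: with FPKM divided by the TMM factors they were 674 in place of 1053, 83 in place of 90 and 11 in place of 10. Without wild-type cellulose replicate 3 they were 1053, 89 and 13.

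**Figure D4:**
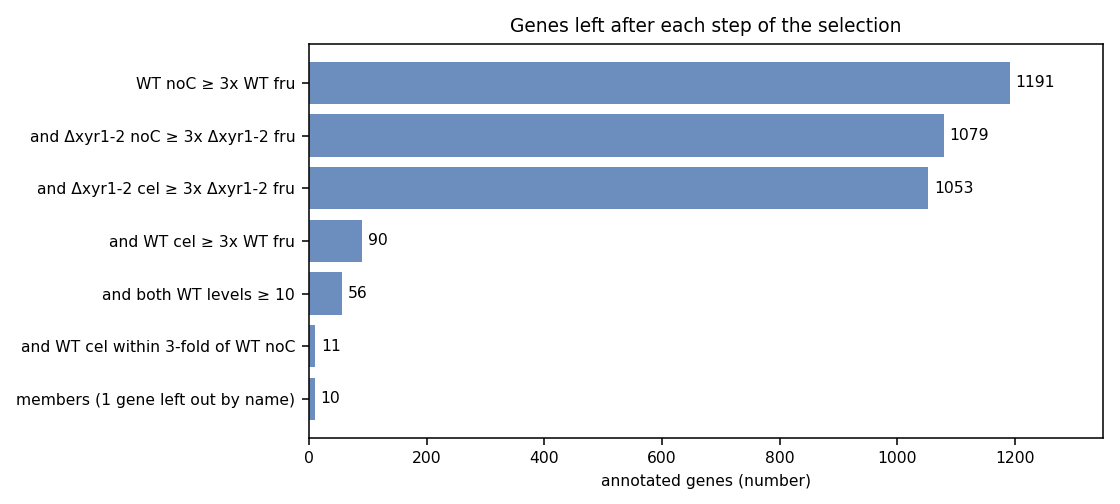
Number of annotated genes left after each step of the selection, where 3x means at least 3 times the median plus 0.5 of the D-fructose group. The wild-type cellulose step takes the number from 1053 to 90, the level step to 56 and the 3-fold limit to 11.

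Within the 56 genes, 49 were lower in the wild type on cellulose than without carbon, with a median ratio of 0.141. As many as 40 lay below the lower limit of the rule, between 0.0130 and 0.245. At the other end 5 genes were above the limit of 3, from Triha1_493995 at 4.65 to Triha1_71613 at 11.2. Among the 10 genes kept, the ratio ran from 0.43 in Triha1_477752 to 1.87 in Triha1_503028, and 8 of 10 were below 1. All these ratios are of FPKM not divided by the TMM factors. The factors were 0.80 to 0.82 in the wild type on cellulose and 1.19 to 1.22 in the wild type without carbon. After division the median positions of the 10 genes lay around the no-carbon level, at 1.07, 1.21 and 0.935. The number below 1 thus depends on the scaling. By FPKM the lower limit fell in a gap between 0.245 and 0.432, and the upper in a gap between 1.87 and 4.65. With FPKM divided by the TMM factors, Triha1_8119 and Triha1_92805 passed from below the lower limit into the selection.

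**Figure D5:**
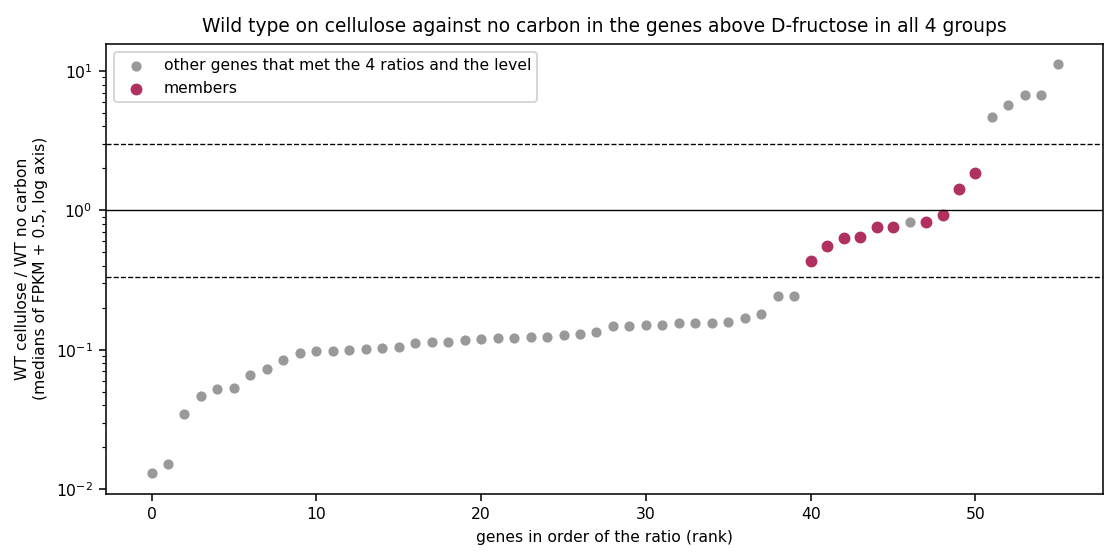
Ratio of the wild type on cellulose to the wild type without carbon (medians of FPKM plus 0.5, log axis) in the 56 genes that met the 4 ratios to D-fructose and the level, in order of the ratio. Dashed lines mark the 3-fold limits, between which lie the 10 genes (coloured) and Triha1_96503 (grey), with 40 genes below and 5 above.

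At the other threshold, the last genes inside were Triha1_74850 and Triha1_477752, with a smallest ratio to D-fructose of 3.34 and 3.33. The first outside were Triha1_420254 at 2.93, which failed in the mutant only, and Triha1_478011 at 2.80, which failed in the wild type on cellulose. In the wild type alone 13 genes met every criterion, and the mutant criteria removed only 2 of them, Triha1_420254 and Triha1_501007, with ratios on cellulose in the mutant of 2.93 and 2.34.

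The 10 genes were scattered over the genome by the annotation of assembly Triha v1.0, whose scaffold names were not given in the table used here. None had another of the 10 as its next gene or within 3 genes on either side, and none overlapped a neighbour, with gaps to the 20 neighbours of at least 177 bases and a median of 1358 bases. None of the neighbours was at least 3 times its D-fructose level in all 4 groups, as were 90 of the 14290 annotated genes. In the wild type without carbon 4 neighbours were, and 2 of these flank Triha1_477752, Triha1_68135 at 10.9 times and Triha1_490162 at 5.29 times. The others were Triha1_975 beside Triha1_489804 at 8.98 times and Triha1_128023 beside Triha1_525334 at 3.45 times. On cellulose in the wild type these 4 neighbours were at 0.654, 1.01, 1.09 and 0.795 times the D-fructose level. Next to each of these 3 genes thus lay a gene that reached 3 times its D-fructose level without carbon and not on cellulose. The median length of the 10 genes was 1456.5 bases, against 1340 for all annotated genes.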

How the data were processed

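Poly-A RNA of the 18 cultures was sequenced as paired-end reads. The authors cleaned the reads, aligned them by STAR to assembly Triha v1.0, which is that of the same strain, and counted reads per gene with HTSeq, and the counts deposited by the authors are these whole numbers. STAR 2.5.2b and HTSeq 0.5.4 are listed in the submitters' processing notes. The FPKM deposited by the authors are scaled for gene length and library size, but not for library composition, so they and the tests can differ in their zero. The kit named does not mark strand. Files name genes M431DRAFT_ with the number given here after Triha1_, and 360 rows without an annotated identifier were left out of the selection. Near-identical gene copies could not be checked without sequences.

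Members were selected on group medians of FPKM plus 0.5. Comparisons used edgeR 4.0.16 in R 4.3.3 on the 6 libraries of 2 groups (TMM, filterByExpr, quasi-likelihood F-test, Benjamini-Hochberg over all genes tested), with standard errors from the F statistic. DESeq2 1.42.0, other size factors, no low-count filter, no FPKM criterion, all 18 libraries in one fit, a replicate block and leaving out each library were alternatives. The steps were tested on simulated data. Python 3.11.15 with numpy 2.4.6 and pandas 2.3.3 was used for the rest.

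The members and lists were chosen with earlier results of these data known. Since the set has only 10 genes, the naming rule (highest smallest ratio, highest level, largest called changes, nearest the threshold) takes all of them, and the neighbours and other genes named were chosen after their values were seen. Lists by product words were not usable, since the reference table holds no product names, so the transporter and carbon catabolism lists were taken by identifier from the part of the study's annotation table used here, after the files were seen. Replicate numbers were taken to pair the samples only within the mutant, and between the strains the block was run as an alternative only. Replicate pre-cultures of a set came from a shared spore plate, and the deviations of same-numbered libraries on cellulose and without carbon correlated over genes at Pearson's r of 0.196, 0.181 and 0.138. Promoter motifs were not analysed here. Replicates are separate cultures of 1 strain each.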

Additional observations from a re-analysis of the deposited data

Results flagged for a closer look

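Among the 360 rows without an annotated identifier, which the selection did not use, 2 met the same thresholds. Novel00093 had a smallest ratio to D-fructose of 4.37, with medians in the wild type of 15.0 FPKM on cellulose, 3.06 on D-fructose and 18.9 without carbon, and in the mutant of 15.8, 2.39 and 15.3 FPKM. Novel00346 had a smallest ratio of 3.40, with 319, 93.3 and 318 FPKM in the wild type and 278, 77.9 and 272 FPKM in the mutant in the same order, a D-fructose level above that of any of the 10 genes. Neither row was tested, and what they encode is not stated in the sources used here.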

How the results depend on the processing

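The number of genes selected was 21 without the minimum of 10, 31 at 2-fold, 6 at 4-fold and 55 without the limit between cellulose and no carbon in the wild type (the last added after the data were seen). All 10 genes were among the 21, the 31 and the 55. Leaving out 1 library gave 9 to 13 genes, and 6 of the 10 were kept in each of the 18 cases. Triha1_489804, Triha1_504281, Triha1_74850 and Triha1_477752 were lost in 2, 2, 2 and 3 cases. With FPKM divided by TMM factors 11 genes were selected, 8 of them shared, without Triha1_503028 and Triha1_504281, and with means in place of medians 9, of which 6 were shared. The cause of these changes was not tested.

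For the strains on cellulose, library size alone gave 2 genes called higher and 0 called lower, with Triha1_487625 at a log2 fold change of 1.15, Triha1_8345 at -0.53 and Triha1_503028 at -0.95. Leaving out 1 library gave 1 to 2 called higher and 1 to 2 called lower, and the genes that changed call were Triha1_487625 and Triha1_8345. With the replicate number as a block, 1 was called higher and 2 lower on cellulose, and 0 in either direction in the other 3 comparisons, so the block changed no call. No called change reversed its direction in the alternatives run. Over all genes DESeq2 called 88 higher and 20 lower between the strains on D-fructose, where edgeR called 0 and 1, and without carbon 2 and 22 against 0 and 15.

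As a share of counts in place of FPKM, the 10 genes held 0.0773% in the wild type on cellulose, 0.0155% on D-fructose and 0.118% without carbon, and 0.181%, 0.0174% and 0.135% in the mutant. Rescaling by TMM factors moved the median positions of the wild-type cellulose libraries to 1.07, 1.21 and 0.935. Depth limits the D-fructose values of low genes, with 15 reads on Triha1_8345, 27 on Triha1_489804 and 35 on Triha1_504998 in their lowest libraries. The alternative for promoter motifs was not run, because no promoter sequences were used.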
